A study of Mus musculus with 12 samples.

Results

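The 37 genes described here encode the machinery that builds, coats, fuses and breaks down lipid droplets (LDs). They were taken from the 35580 genes in the tables as a list chosen with earlier results of these data known. They fell into 3 CIDE proteins, 5 perilipins, 8 lipases and lipolysis regulators, 12 enzymes of triglyceride and sterol ester synthesis, 2 droplet formation proteins and 7 genes of fatty acid uptake, binding and activation. RNA was sequenced from mouse R1 embryonic stem cells (ESCs), either wild type (WT, the parental line) or Cidea -/- (CIDEA KO), which was a single clone for these libraries, made by CRISPR-Cas9 deletion between the first intron and the last exon of Cidea. Each genotype was sampled as ESCs before induction (0 h, in 10% FBS with LIF) and as 3D spheroids 24 h and 48 h after induction. Spheroids grew in 15% FBS without LIF. For molecular experiments, the paper describes seeding cells on top of a matrigel coat, with matrigel also added to the medium. There were 2 libraries in each of the 6 groups, and 12 in all. Since CIDEA KO cells were represented by 1 clone, the genotype and other differences of that clone cannot be told apart, and since culture format, serum and LIF changed together with time, these cannot be told apart in the time comparisons either.

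LDs store triglycerides and sterol esters under a phospholipid monolayer. Fatty acids enter the cell, are bound by fatty acid binding proteins and are activated by acyl-CoA synthetases, after which acyltransferases build triglyceride in the endoplasmic reticulum, perilipins coat the droplet that buds off, CIDE proteins move lipid from small droplets into larger ones, and lipases release the stored fatty acids again. The comparison of CIDEA KO with WT asks whether the transcripts of this machinery differ when the droplet fusion protein CIDEA is missing, and the comparison of the times asks how they differ while ESCs form spheroids.

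The libraries held 29 to 38.5 M estimated counts (M, mega). KO 24 h replicate 1 stood apart, with 15476 genes detected at equal depth against 17636 to 19660 in the other libraries, so leaving it out was among the alternatives tried. The identity of the cells was checked with marker genes. The 7 pluripotency markers summed to 5752 to 6468 TPM (transcript abundance corrected for length and scaled to the same total in each library) at 0 h, 5593 to 5989 at 24 h and 3779 to 4289 at 48 h, and all 7 were called from 0 h to 48 h in both genotypes. The 4 mesoderm and primitive streak markers summed to 4.39 to 6.67 TPM at 0 h and 10.7 to 13.4 at 48 h, with Eomes called, and the 6 trophoblast markers to 2.47 to 5.44 and 4.99 to 7.13 TPM, with Cdx2 called in KO. Over all libraries the 10 extraembryonic endoderm markers summed to 7.63 to 15.6 TPM (Dab2 called over time, Ttr at 0), the 3 neuroectoderm markers to 9.15 to 22.6 (Sox1 called over time) and the 6 fibroblast markers to 6.88 to 24.8 (Postn at 0). From 0 h to 48 h the endoderm sum was higher in both genotypes without overlap, and the neuroectoderm sum was lower without overlap in WT only. The 3 two-cell-like markers reached 5.68 to 5.74 TPM in WT and 0.0935 to 0.609 in KO at 48 h. Between genotypes, Zfp42, Sox1, Thy1 and Zscan4c were called over all times. The 7 adipocyte markers summed to 0.2 to 1.56 TPM, with Cfd at 0 in every library. The sums do not give the direction of single markers that were called, and 1 pluripotency marker alone reached 2793.6 TPM. Several of these markers moved with the times and genotypes compared here, and their part in the changes of the droplet genes was not tested.

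Levels between genes were compared in TPM, summed over the transcripts of a gene. Fabp3, the fatty acid binding protein of heart and muscle, had the highest mean over the 12 libraries, 297.5 TPM, and a range from 47.1 to 811.9. That mean rests on its group means of 728.4 TPM in WT and 668.5 in KO ESCs. At 48 h in KO its mean of 53.8 TPM did not stand apart from Gpat4 at 53.6 and Acsl3 at 53.0, and in replicate 1 it was below both. Next came Gpat4 at 46.2, Acsl3 at 44.5, Plin3 at 41.4, Agpat1 at 35.3, Agpat2 at 34.4 and Pnpla2 at 26.4 TPM on average. Neighbours in this order overlapped over the libraries, while the ends did not, with Gpat4 between 35.3 and 62.7 TPM and Pnpla2 between 21.4 and 31.9. At the other end, Cd36, the fatty acid translocase, had 0 counts in every library, and Cidec reached at most 10 counts. Both stayed below the expression filter, and the other 35 members were tested. Of the 37, 29 had at least 10 counts in every library, while Cidea, Cideb, Cidec, Plin1, Plin4, Mgll, G0s2 and Cd36 did not.

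**Figure D1:**
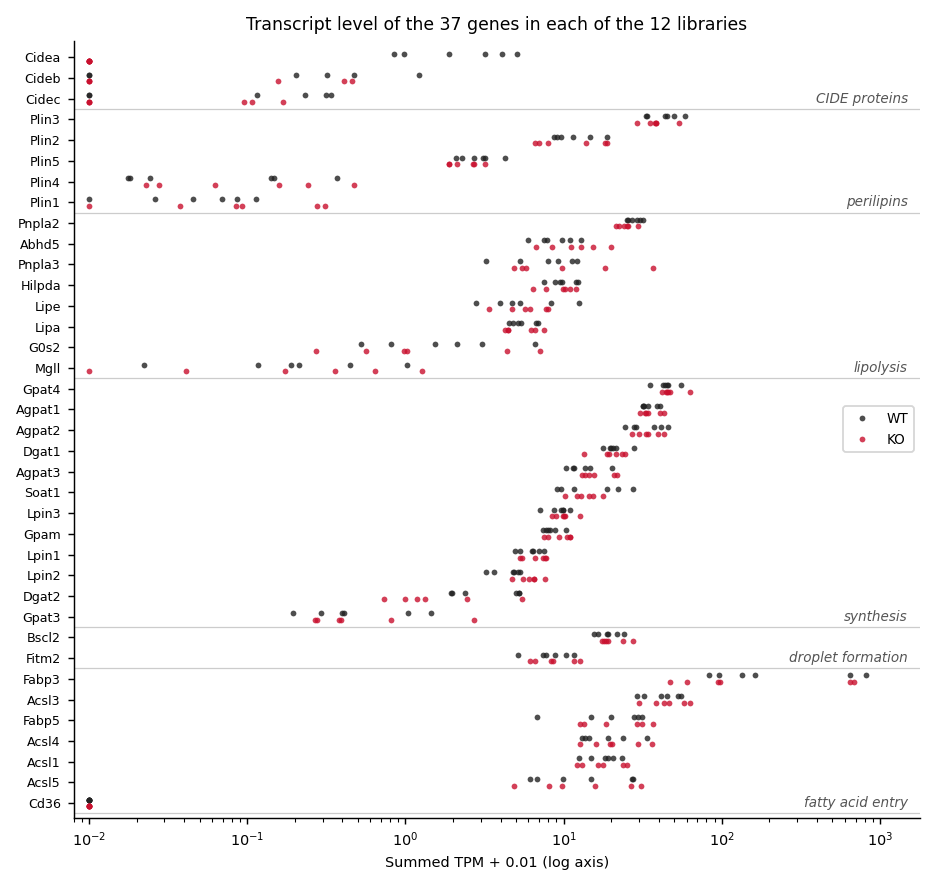
Level of each of the 37 genes in each library, as summed TPM plus 0.01 on a log axis, grouped by role and ordered by mean level within a role. Black points are the 6 WT and red points the 6 CIDEA KO libraries. Fabp3 spans 47.1 to 811.9 TPM, Cidea is at 0 in all KO libraries, and Cd36 is at 0 in every library.

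Changes of a gene were compared in CPM (counts scaled to library size by TMM), and a gene is called where edgeR's quasi-likelihood test gave a Benjamini-Hochberg adjusted p under 0.05 over the 17424 genes tested. Between 0 h and 24 h, 10 of the 35 members tested were called in WT (3 rose, 7 fell), against 15.0% of all genes tested. In KO, 11 were called (5 rose, 6 fell), against 18.6% of all genes. From 24 h to 48 h, 6 members were called in WT (4 rose, 2 fell) where 8.14% of all genes were, and 7 in KO (5 rose, 2 fell) where 9.95% were. Over the whole course from 0 h to 48 h, 9 members were called in WT (4 rose, 5 fell) with 23.6% of all genes, and 12 in KO (4 rose, 8 fell) with 25.0%. As shares of the members tested, these were 28.6%, 31.4%, 17.1%, 20%, 25.7% and 34.3%. The median log2 fold change of the members lay between -0.12 and 0.01 in the 6 time comparisons, beside -0.03 to 0.03 over all genes tested. Libraries of the times compared did not overlap for 20 members in WT and 26 in KO (24 h against 0 h). These numbers were 21 and 19 for 48 h against 24 h, and 22 and 25 for 48 h against 0 h. Over all genes this was not counted, so a lack of overlap alone does not set a member apart. In bulk RNA, a lower level in fewer cells and a lower level per cell cannot be told apart.

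Members called in the same direction in both genotypes numbered 7 from 0 h to 24 h, 5 from 24 h to 48 h and 8 from 0 h to 48 h, of 35 tested. The same criterion held for 11.0%, 5.25% and 17.7% of all genes tested. Of the 35, 19 were called in at least 1 time comparison, against 37.6% of all genes tested, and 2, Cidea and Fabp3, in at least 1 genotype comparison, against 5.26%. Cidea was the gene deleted, so its difference was set by the design. Of the 34 other members tested, Fabp3 alone was called between genotypes. A difference between the genotypes in the size of a time change was tested as an interaction. No member was called there, for 24 h against 0 h (0.0115% of all genes called) or for 48 h against 0 h (0.0402%), with 3 members at an unadjusted p under 0.05 in each, where 5.91% and 5.76% of all genes were. DESeq2 also called 0 members in both interactions (0.15% and 1.04% of all genes), and edgeR without the expression filter called 1 at 48 h against 0 h (0.497%).

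**Figure D2:**
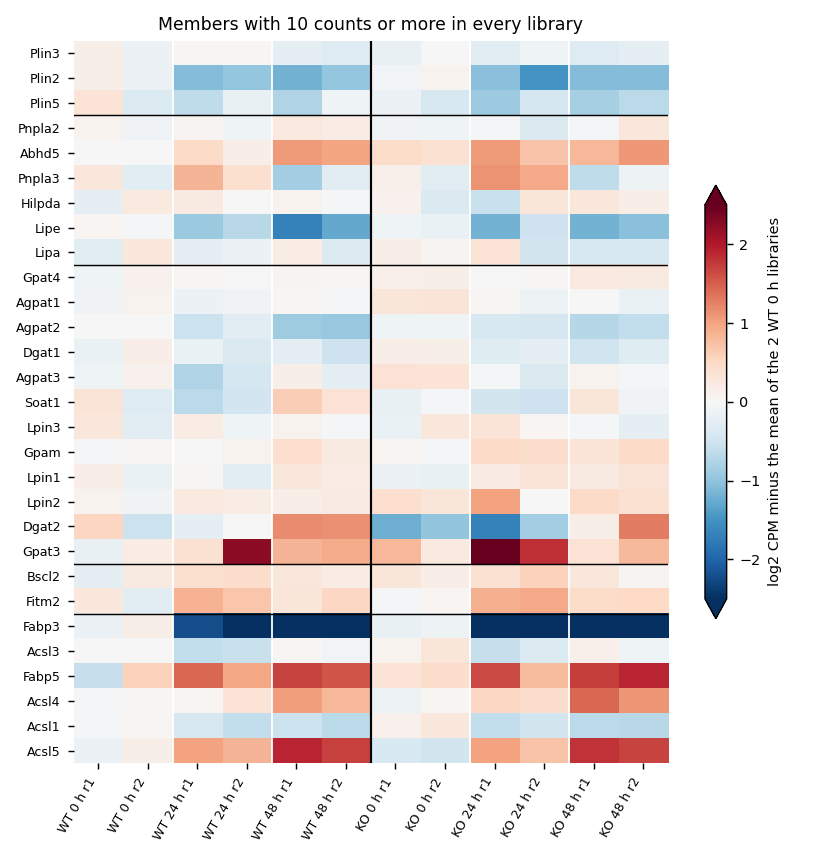
The 29 members with at least 10 counts in every library (rows, grouped by role in the order perilipins, lipolysis, synthesis, droplet formation and fatty acid entry) in the 12 libraries (columns; r1 and r2 are the replicates). Colour is log2 CPM minus the mean of both WT 0 h libraries and is capped at 2.5 in either direction. Acsl5 and Fabp5 turn red and Fabp3, Plin2 and Lipe blue in the 24 h and 48 h columns of both genotypes.

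Cidea, which tethers LDs and lets lipid flow between them, was the gene deleted. WT libraries held 89 and 67 counts at 0 h, 117 and 46 at 24 h, and 20 and 21 at 48 h. All 6 KO libraries held 0 counts. With a floor of 3 counts per library, the bound on the KO level of Cidea was at least 24.6-fold lower before induction. It was at least 27.2-fold lower in 24 h spheroids, and at least 14.7-fold lower from WT 24 h replicate 2 alone. In 48 h spheroids, where WT itself held few counts, the bound was at least 7.04-fold lower. The edgeR adjusted p was 0.017 at 0 h, 0.015 at 24 h, 0.092 at 48 h and 7.6e-05 over all times, so the 48 h difference did not pass although the libraries did not overlap. The 0 h call was lost with length offsets and without WT 0 h replicate 1, WT 24 h replicate 1 or either KO 0 h library, and the 24 h call on log2(TPM + 1), with length offsets, in a fit of the compared groups alone and without WT 24 h replicate 1. In WT, the 48 h mean of 0.634 CPM was under the 24 h mean of 2.39 CPM, a log2 difference of -1.91 (SE 1.124, adjusted p = 0.40) that was not called. Its relatives were scarce. Cideb, known for its part in lipoprotein lipidation in liver, had 0 to 21 counts per library and was called nowhere.

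Among the perilipins, Plin2, the coat protein found on droplets of most cell types, was lower in spheroids of both genotypes. In WT, Plin2 stood at 19.7 and 15.9 CPM at 0 h, 8.35 and 9.03 at 24 h and 7.84 and 9.01 at 48 h. KO libraries read 16.8 and 18.7, then 8.61 and 6.32, then 8.31 and 8.35 CPM. Every spheroid library lay below every ESC library, and the 24 h and 48 h libraries overlapped. At 24 h against 0 h the log2 fold change was -1.03 in WT (SE 0.229, adjusted p = 0.0035) and -1.25 in KO (SE 0.23, adjusted p = 0.00057), and from 24 h to 48 h neither genotype was called. These 4 calls against 0 h were lost on log2(TPM + 1) with limma and with transcript lengths as offsets, where the KO 24 h value was as small as -0.40, and the WT 24 h call also without WT 0 h replicate 1 or WT 24 h replicate 1. On the TPM scale, KO 24 h replicate 1 held 18.9 TPM of Plin2 beside 6.57 in replicate 2, while its 294 counts were close to the other 24 h libraries.

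The 249 bases before the RefSeq start of Plin2 that lie outside the annotated gene are shown because Plin2 was the only perilipin called, with the nuclear receptor element AGGTCA (here on the opposite strand, as TGACCT) and the CCAAT box in capitals (GRCm38.p6, chr4:86670061-86670309, minus strand, 5′ to 3′).
Plin2: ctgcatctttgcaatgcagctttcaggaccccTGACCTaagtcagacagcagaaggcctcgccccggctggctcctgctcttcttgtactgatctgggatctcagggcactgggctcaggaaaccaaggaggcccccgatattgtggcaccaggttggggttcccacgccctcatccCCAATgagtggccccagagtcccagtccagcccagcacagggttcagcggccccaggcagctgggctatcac

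Plin3, a perilipin that moves between cytosol and droplet, was the leading coat transcript and was called in no comparison. Its WT libraries held 103.6 and 84.7 CPM at 0 h, 95.9 and 97.5 at 24 h and 78.7 and 75.1 at 48 h. KO libraries held 82.8 and 94.2, then 76.8 and 87.4, then 74.6 and 79.4 CPM. The lowest log2 fold change of Plin3 in the 6 time comparisons was -0.33, for WT 48 h against 24 h (adjusted p = 0.065). As a share of the summed TPM of Plin1 to Plin5, Plin3 took 67.1% ± 1.6 (SD, n = 2) in WT ESCs and 76.2% ± 4.0 at 48 h, and 66.8% ± 2.8 and 76.8% ± 0.2 in KO. Plin2 went from 27.2% ± 2.1 to 17.8% ± 1.9 in WT and from 28.0% ± 3.8 to 17.8% ± 0.7 in KO. Plin5, which links droplets to mitochondria, took 4.1% to 5.6% in every group. Plin1 and Plin4, the coats of adipocyte droplets, stayed at or below 0.301 and 0.462 TPM in all libraries.

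Of the 8 lipolysis genes, Lipe, Abhd5, G0s2 and Pnpla3 (4 in all) were called in at least 1 time comparison, as were 37.6% of all genes tested. Pnpla2 encodes adipose triglyceride lipase (ATGL), which removes the first fatty acid from triglyceride, and had the highest mean TPM of the 8 over the 12 libraries. In KO at 24 h its mean of 21.8 TPM was below that of Pnpla3 at 27.5. Its leading transcript, Pnpla2-201, is annotated as a target of nonsense-mediated decay. As group means this transcript took 36.4% to 75.8% of the gene's TPM, and it took 100% in KO 24 h replicate 1. The values of Pnpla2 given here sum all its transcripts. Its level was 32.6 and 28.5 CPM at 0 h, 31.8 and 28.2 at 24 h and 36.0 and 34.6 at 48 h in WT. In KO it was 28.8 and 28.4, 29.3 and 23.6, and 29.6 and 37.1 CPM. Pnpla2 was called in no comparison, and its log2 difference between KO and WT was -0.10 at 0 h (95% interval -0.41 to 0.22), -0.18 at 24 h (-0.50 to 0.13) and -0.08 at 48 h (-0.40 to 0.23).

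Lipe encodes hormone-sensitive lipase, which acts on diglyceride in the following step, and was lower at 48 h. WT libraries went from 16.3 and 15.1 CPM at 0 h to 8.29 and 9.65 at 24 h and 4.88 and 6.48 at 48 h. KO libraries went from 14.5 and 13.9 to 6.94 and 10.9 and then to 6.90 and 7.62 CPM. No 48 h library reached an ESC library. At 48 h against 0 h the log2 fold change was -1.46 in WT (SE 0.261, adjusted p = 3e-04), and the KO value was -0.97 (SE 0.258, adjusted p = 0.0084). The WT value held under every alternative. The KO value was lost on log2(TPM + 1), with length offsets and without KO 0 h replicate 1 or KO 48 h replicate 1. The WT call at 24 h (-0.80, adjusted p = 0.038) was kept in only 4 of 12 fits that each left out 1 library and was lost without the expression filter, on log2(TPM + 1) and with length offsets. Mgll, which cleaves the last ester bond of monoglyceride, had 0 to 34 counts per library and was not called.

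Abhd5, the co-activator of ATGL, was at 5.77 and 5.87 CPM in WT ESCs, 8.11 and 6.55 at 24 h and 12.2 and 11.5 at 48 h. In KO it was at 7.96 and 7.56, 12.2 and 9.49, and 10.3 and 12.3 CPM. The WT rise from 0 h to 48 h was called (log2 1.03, SE 0.251, adjusted p = 0.0048), but not on log2(TPM + 1) or with length offsets. The KO value was 0.54 (SE 0.248, adjusted p = 0.13). G0s2, an inhibitor of ATGL, had 47 and 97 counts at 0 h, 13 and 36 at 24 h and 22 and 9 at 48 h in WT, and 62 and 98, 16 and 16, and 5 and 8 counts in KO. The KO fall from 0 h to 48 h was called (log2 -3.76, SE 1.075, adjusted p = 0.013) and was lost without KO 0 h replicate 2, KO 48 h replicate 1 or KO 48 h replicate 2. The WT value of -2.26 (SE 0.998, adjusted p = 0.11) was not called. Hilpda, the hypoxia-inducible inhibitor of ATGL, stayed between 3.57 and 6.47 CPM and was not called.

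Pnpla3, an ATGL relative that remodels droplet lipid, was highest at 24 h. KO libraries held 5.04 and 3.85 CPM at 0 h, 10.1 and 8.99 at 24 h and 3.00 and 4.23 at 48 h. WT libraries held 5.67 and 3.79, 8.35 and 6.13, and 2.58 and 3.82 CPM, so that the 24 h libraries lay above both other times in each genotype. In KO the rise to 24 h was 1.10 on the log2 scale (SE 0.366, adjusted p = 0.041), and the later change was -1.40 (SE 0.369, adjusted p = 0.018). The WT values of 0.61 (adjusted p = 0.31) and -1.18 (adjusted p = 0.056) were not called. The KO rise was lost without the expression filter, when KO libraries at 0 h and 24 h alone were fitted, and in all but 6 of 12 fits that left out 1 library. The fall was lost in a fit of the compared groups alone and without KO 48 h replicate 1. Lipa, the acid lipase that digests droplet lipid in lysosomes, lay between 8.4 and 14.7 CPM over the 12 libraries and was called in no comparison, with log2 differences between KO and WT of 0.10, 0.18 and -0.34 at 0 h, 24 h and 48 h.

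**Figure D3:**
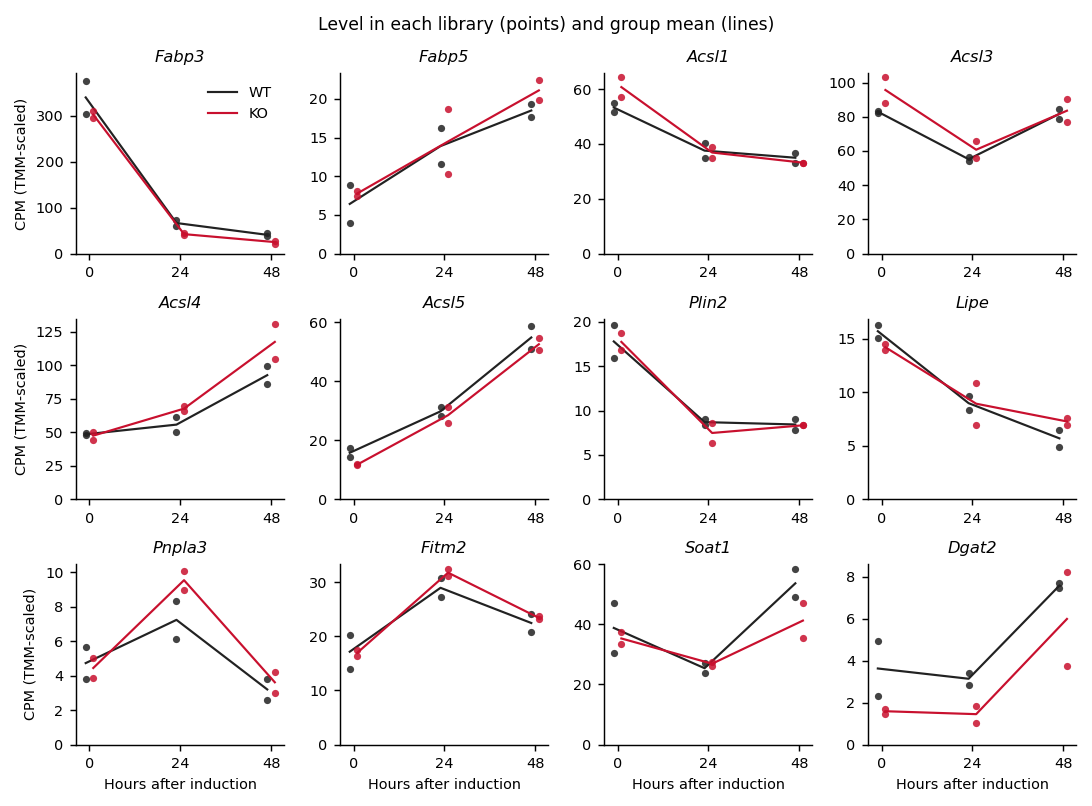
CPM of 12 members against hours after induction. Points are libraries, lines join the group means, and WT (black) and CIDEA KO (red) points are drawn slightly apart. Fabp3, Plin2 and Lipe fall, Acsl4, Acsl5 and Fabp5 rise, Acsl3 and Soat1 are lowest at 24 h, and Pnpla3 and Fitm2 are highest at 24 h.

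Of the 12 synthesis enzymes, 7 were called in at least 1 time comparison (37.6% of all genes tested). Gpat4, which adds the first acyl chain to glycerol phosphate, had the highest TPM of these and lay between 95.5 and 121.8 CPM in all libraries, with log2 fold changes from -0.12 to 0.22 in the time comparisons. Gpam, the mitochondrial enzyme for the same step, was at 20.5 and 19.4 CPM in KO ESCs and 27.9 and 27.2 in KO spheroids at 24 h. WT held 19.6 and 20.3 CPM at 0 h, 20.2 and 21.1 at 24 h and 26.7 and 23.2 at 48 h, and KO 24.9 and 27.9 at 48 h. The KO rise at 24 h (log2 0.46, SE 0.152, adjusted p = 0.038) was called, but it was kept in only 6 of 12 fits that left out 1 library and was lost without the expression filter, on log2(TPM + 1), with length offsets and in a fit of the compared groups alone.

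The acyltransferases of the next step, which make phosphatidic acid, were lower at some times. Agpat2, the form mutated in a congenital lipodystrophy, fell from 38.7 and 38.0 CPM in WT ESCs to 26.3 and 31.9 at 24 h and 20.6 and 20 at 48 h. The WT value from 0 h to 48 h was -0.92 on the log2 scale (SE 0.138, adjusted p = 4.9e-05), and it held under every alternative and without each library. In KO, Agpat2 went from 35.4 and 35.5 to 28.9 and 28.6 and then 23.3 and 25.2 CPM, a called change of -0.55 (SE 0.138, adjusted p = 0.0054) that was lost with length offsets and without KO 48 h replicate 1. Agpat3 was called at 24 h. It was at 22.9 and 26.9 CPM in WT ESCs, 14.7 and 18.3 at 24 h and 27.3 and 20.9 at 48 h, and at 31.7 and 31.3, 23.9 and 19.3, and 26.3 and 23.9 CPM in KO. The 24 h values of -0.59 in WT (adjusted p = 0.028) and -0.54 in KO (adjusted p = 0.036) each lost their call in some fits that left out 1 library, being kept in 10 and 9 of 12. The WT call was also lost on log2(TPM + 1) and with length offsets, where the value was as small as -0.20, and the KO call with the compared groups alone. Agpat1 was at 53.9 and 54.6 CPM in KO ESCs, 44.5 and 40.3 at 24 h and 43.5 and 39 at 48 h, and its WT libraries lay between 39.7 and 46.6 CPM. The KO values were -0.35 at 24 h (adjusted p = 0.038, kept in 4 of 12) and -0.40 at 48 h (adjusted p = 0.015, kept in 9 of 12). Both were lost on log2(TPM + 1) and with length offsets, and the 24 h call also without the expression filter and with the compared groups alone. The lipins Lpin1, Lpin2 and Lpin3, which turn phosphatidic acid into diglyceride, were called nowhere.

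Dgat1 and Dgat2, unrelated proteins that both turn diglyceride into triglyceride, took unequal parts of their summed TPM. In WT ESCs Dgat1 had 86.7% ± 9.8 (SD, n = 2) of the sum and in KO ESCs 95.4% ± 0.9, and at 48 h 79.3% ± 1.7 and 81.2% ± 4.7. Dgat1 libraries held 22.6 and 22.3 CPM in KO ESCs, 16.4 and 16.9 at 24 h and 14.3 and 16.3 at 48 h. The KO value from 0 h to 48 h was -0.56 (SE 0.184, adjusted p = 0.032), and it was lost without either KO 0 h or either KO 48 h library, on log2(TPM + 1) and with length offsets. In WT, Dgat1 stood at 18.0 and 22.5, 18.0 and 15.7, and 17.1 and 14.1 CPM, with no call.

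Dgat2 was called in KO spheroids at 48 h. KO libraries held 1.46 and 1.72 CPM at 0 h, 1.05 and 1.85 at 24 h and 3.74 and 8.25 at 48 h. The 48 h libraries lay above all earlier ones but far from each other. KO Dgat2 rose by 1.91 on the log2 scale from 0 h to 48 h (SE 0.504, adjusted p = 0.0076) and by 2.04 from 24 h to 48 h (SE 0.504, adjusted p = 0.012). Without KO 48 h replicate 2 both calls were lost, the first with a log2 value of 1.24 and the second with 1.36, the first was also lost without KO 0 h replicate 1, and both on log2(TPM + 1). The second was lost as well with length offsets and with the compared groups alone. WT libraries held 4.94 and 2.32, 2.85 and 3.43, and 7.70 and 7.47 CPM, and the WT values of 1.06 and 1.27 were not called (adjusted p = 0.13 for both).

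Soat1, which esterifies cholesterol for storage, dipped at 24 h. WT libraries held 47.1 and 30.5 CPM at 0 h, 23.7 and 27.1 at 24 h and 58.3 and 49.0 at 48 h. KO libraries held 33.3 and 37.3, 27.5 and 26.3, and 47.0 and 35.5 CPM. The 24 h libraries were the lowest in each genotype. The WT value at 24 h against 0 h was -0.61 (SE 0.183, adjusted p = 0.031), and it was not called without WT 0 h replicate 1, WT 24 h replicate 1 or WT 24 h replicate 2. From 24 h to 48 h Soat1 rose by 1.08 in WT (SE 0.183, adjusted p = 0.00097), kept without each library, and by 0.62 in KO (SE 0.182, adjusted p = 0.039), kept in 5 of 12 such fits. All 3 Soat1 calls were lost on log2(TPM + 1), both rises with length offsets, and the WT fall and the KO rise in a fit of the compared groups alone.

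Of the droplet formation proteins, Fitm2, which binds triglyceride in the endoplasmic reticulum and promotes budding, was higher at 24 h. It was at 20.3 and 14 CPM in WT ESCs, 30.7 and 27.2 at 24 h and 20.8 and 24.1 at 48 h. KO libraries read 16.4 and 17.5, 31.1 and 32.4, and 23.1 and 23.7 CPM. The 24 h libraries of both genotypes were above all others. The rise to 24 h was 0.75 on the log2 scale in WT (SE 0.175, adjusted p = 0.0052) and 0.90 in KO (SE 0.175, adjusted p = 0.00092). The KO call held under every alternative and without each library, and the WT call was lost without WT 0 h replicate 2 or WT 24 h replicate 1. Bscl2, which encodes seipin at the site of droplet assembly, was the more abundant of the pair per length, at a mean of 20 TPM. Its WT libraries held 14.9 and 20.6 CPM at 0 h, 23.2 and 23.9 at 24 h and 21.4 and 19.9 at 48 h, its KO libraries 21.7 and 19.6, 22.8 and 26.0, and 21.2 and 18.3 CPM, and it was not called.

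Of the 7 genes of fatty acid entry, all but Cd36, which was not tested, were called in at least 1 time comparison, beside 37.6% of all genes tested. Fabp3 fell from 304.8 and 374.8 CPM in WT ESCs to 72.7 and 60.4 at 24 h and 37.9 and 43.8 at 48 h. KO libraries fell from 295.4 and 309.5 to 44.0 and 40.8 and then to 28.4 and 21.8 CPM. The times did not overlap within a genotype. At 48 h against 0 h its log2 value was -3.05 in WT (SE 0.14, 8.30-fold lower, adjusted p = 4.5e-10) and -3.58 in KO (SE 0.144, 12-fold lower, adjusted p = 7.8e-11). Most of this was seen by 24 h, with -2.35 in WT and -2.84 in KO, and the later step was -0.70 and -0.75. These calls held under every alternative and without each library, except that the WT step from 24 h to 48 h was lost without WT 48 h replicate 1.

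The bases before the RefSeq start of Fabp3 that lie outside the annotated gene are shown because Fabp3 had the lowest adjusted p of the members and was the only one besides Cidea called between genotypes (GRCm38.p6, chr4:130308488-130308594, plus strand, 107 bases, 5′ to 3′).
Fabp3: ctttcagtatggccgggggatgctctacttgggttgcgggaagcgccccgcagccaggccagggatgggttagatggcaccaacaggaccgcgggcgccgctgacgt

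Fabp5, the epidermal fatty acid binding protein, moved the other way. Mouse Fabp5 has related copies in the genome, and how its reads were split among them was not examined. WT libraries rose from 4.02 and 8.83 CPM to 16.2 and 11.6 at 24 h and 19.3 and 17.7 at 48 h, and KO libraries from 7.51 and 8.05 to 18.7 and 10.3 and then 19.8 and 22.4 CPM. At 48 h every library was above every ESC library, a rise of 1.53 in WT (SE 0.335, adjusted p = 0.0036) and 1.44 in KO (SE 0.333, adjusted p = 0.0048). The KO call was lost without KO 0 h replicate 1, and the WT call at 24 h (1.12, adjusted p = 0.036) was kept in 6 of 12 fits and lost on log2(TPM + 1), with length offsets, with a replicate block and with the compared groups alone. In summed TPM of both genes, Fabp3 held 98.6% ± 0.6 (SD, n = 2) in WT ESCs and 74.6% ± 2.8 at 48 h, and in KO 98.1% and then 61.2% ± 6.9. Fabp3 therefore remained the more abundant of the pair in every group.

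The 4 acyl-CoA synthetases, which activate fatty acids, changed in different directions. Acsl5 rose throughout. WT libraries held 14.2 and 17.2 CPM at 0 h, 31.3 and 28.2 at 24 h and 58.8 and 50.8 at 48 h, and KO libraries 12 and 11.4, 31.2 and 25.7, and 54.5 and 50.5 CPM. No library of a later time was as low as one of an earlier time. The rise from 0 h to 48 h was 1.80 in WT (SE 0.15, 3.49-fold, adjusted p = 2.3e-08) and 2.17 in KO (SE 0.154, 4.49-fold, adjusted p = 1.6e-09), kept under every alternative and without each library.

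Acsl4, which prefers arachidonic acid, rose mainly after 24 h. In WT it was at 47.7 and 49.1 CPM at 0 h, 50.1 and 61.2 at 24 h and 99.2 and 86.0 at 48 h. In KO it was at 44.5 and 50.3, 69.2 and 66.0, and 130.5 and 104.4 CPM. From 0 h to 48 h the rise was 0.94 in WT (SE 0.124, adjusted p = 1e-05) and 1.31 in KO (SE 0.125, adjusted p = 1.1e-07), and both held in all fits. The rise by 24 h was called in KO (0.51, adjusted p = 0.0058) and was 0.20 in WT, without a call. The KO call was lost on log2(TPM + 1), with length offsets and without KO 0 h replicate 1.

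Acsl1, the main form of adipocytes and liver, fell. It went from 51.6 and 54.9 CPM in WT ESCs to 40.3 and 34.8 at 24 h and 36.7 and 33.2 at 48 h, and in KO from 57.2 and 64.2 to 34.8 and 38.9 and then 33.2 and 33.1 CPM. All spheroid libraries were below all ESC libraries, with log2 values from 0 h to 48 h of -0.61 in WT (SE 0.122, adjusted p = 0.00092) and -0.87 in KO (SE 0.122, adjusted p = 1.8e-05). The KO value held under every alternative, and the WT value was lost on log2(TPM + 1) and with length offsets. Acsl3, which sits on nascent droplets, was lowest at 24 h. Its WT libraries held 83.6 and 82.3 CPM at 0 h, 53.9 and 56.5 at 24 h and 84.5 and 78.9 at 48 h, and its KO libraries 88.3 and 103.0, 55.9 and 65.6, and 90.3 and 76.8 CPM. It fell by 0.59 in WT (SE 0.111, adjusted p = 0.00091) and by 0.65 in KO (SE 0.111, adjusted p = 0.00024) to 24 h and rose again by 0.56 and 0.46 (adjusted p = 0.0023 and 0.0095). These 4 calls were lost on log2(TPM + 1) and with length offsets, and the KO rise also with the compared groups alone and without KO 24 h replicate 1 or KO 48 h replicate 1.

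The makeup of the synthetases shifted accordingly. Of the summed TPM of the 4 genes, Acsl3 took 52.8% ± 3.6 (SD, n = 2) in WT ESCs and 41.4% ± 7.2 at 48 h, and Acsl1 24.6% ± 0.4 and 12.6% ± 2.8. Over the same time Acsl5 went from 7.4% ± 1.3 to 22.4% ± 0.5 and Acsl4 from 15.1% ± 2.0 to 23.6% ± 4.9. In KO, Acsl5 went from 6.6% ± 1.4 to 22.7% ± 1.6 and Acsl1 from 25.4% ± 2.4 to 10.0% ± 2.2. For Acsl1 and Acsl5 the difference between 0 h and 48 h was larger than the spread between replicates in each genotype, while for Acsl3 in WT the 48 h replicates were 36.3% and 46.5%.

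**Figure D4:**
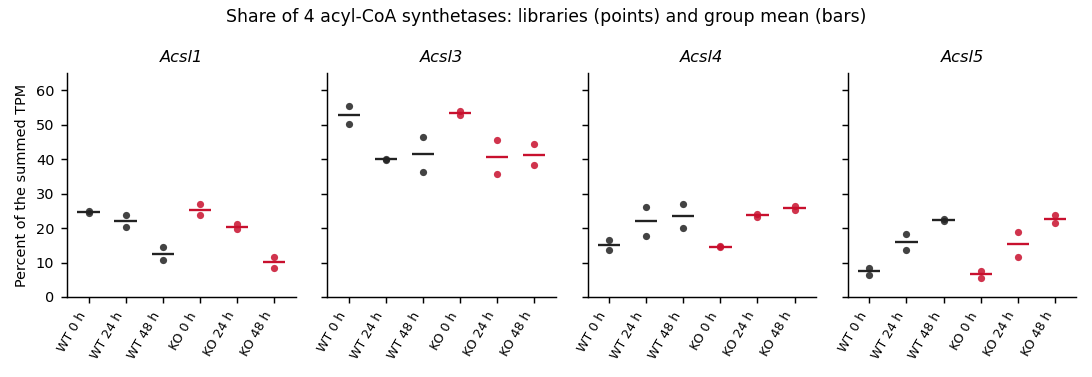
Share of each of 4 acyl-CoA synthetases in their summed TPM, in percent, for each library (points) and as the mean of 2 libraries (bars), in WT (black) and CIDEA KO (red). The Acsl5 share rises from 7.4% to 22.4% in WT and from 6.6% to 22.7% in KO, and the Acsl1 share falls in both.

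The bases before the starts of Acsl1 and Acsl4 are shown because these genes moved in opposite directions (GRCm38.p6, 250 bases each outside the annotated gene, 5′ to 3′: Acsl1 at chr8:46470787-46471036, plus strand, and Acsl4 at chrX:142390536-142390785, minus strand), with each GC box (GGGCGG, or CCGCCC on the opposite strand) in capitals.
Acsl1: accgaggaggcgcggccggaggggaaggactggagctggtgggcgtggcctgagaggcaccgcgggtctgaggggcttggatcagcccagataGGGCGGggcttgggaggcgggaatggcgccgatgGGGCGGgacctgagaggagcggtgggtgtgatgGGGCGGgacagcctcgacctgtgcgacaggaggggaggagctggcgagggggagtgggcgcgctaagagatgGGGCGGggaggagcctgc
Acsl4: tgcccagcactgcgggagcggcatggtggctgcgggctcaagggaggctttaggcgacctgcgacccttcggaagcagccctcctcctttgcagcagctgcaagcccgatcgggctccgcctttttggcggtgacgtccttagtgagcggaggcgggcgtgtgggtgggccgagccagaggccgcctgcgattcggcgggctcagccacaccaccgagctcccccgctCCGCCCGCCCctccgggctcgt

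Both windows hold the GC box. In the RefSeq table of promoters, 32 of the members had 45 windows of 250 bases, and each motif was searched on both strands. The GC box was in 53.3% of these windows and in 32.7% of all 32851 windows of the table, and the CCAAT box in 33.3% and 33.9%. AGGTCA was in 17.8% of the members' windows and 14.02% of all, CACGTG, the E-box bound by factors such as TFEB, in 6.7% and 6.02%, and TATAAA in 4.4% and 12.4%. The longer TCAAGGTCA, the element of the naive pluripotency factor ESRRB, which contains AGGTCA, was in 0 of the 45 windows and 0.39% of all, and the sterol element TCACNCCAC in 2.2% and 1.05%. These are matches of letters and not measured binding.

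Between genotypes, 1 or 2 members were called in each comparison, which does not show that the others were equal. At 0 h, Cidea, the gene deleted, was the 1 member called, where 1.26% of all genes tested were called, so none of the 34 others was. At 24 h, Cidea and Fabp3 were called (1.46% of all genes), at 48 h Fabp3 alone (0.671%), and over all times Cidea and Fabp3 (5.03%). As shares of the members tested, with Cidea among them, these were 2.9%, 5.7%, 2.9% and 5.7%. No member was higher in KO by this test. The number at an unadjusted p under 0.05 was 4, 10, 3 and 9 of 35 in these comparisons, beside 10%, 12.5%, 7.74% and 16.8% of all genes. DESeq2 called 1, 2, 2 and 3 members, and 2.65%, 2.79%, 1.44% and 7.44% of the genes it tested.

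Fabp3 was lower in KO spheroids. At 24 h the KO libraries with 44.0 and 40.8 CPM lay below the WT libraries with 72.7 and 60.4 CPM, and at 48 h 28.4 and 21.8 lay below 37.9 and 43.8. At 0 h the genotypes overlapped. The log2 fold change of KO over WT was -0.17 at 0 h (95% interval -0.44 to 0.11, adjusted p = 0.78), -0.65 at 24 h (-0.94 to -0.37, adjusted p = 0.023) and -0.70 at 48 h (-0.99 to -0.41, adjusted p = 0.031). Over all times it was -0.51 (SE 0.076, adjusted p = 0.0011), a value kept under every alternative and without each library. The 24 h call was lost on log2(TPM + 1), with length offsets, with those 4 libraries alone, and without WT 24 h replicate 1, KO 24 h replicate 1 or KO 24 h replicate 2. The 48 h call was lost on log2(TPM + 1), with length offsets, with a replicate block, and without WT 48 h replicate 1, WT 48 h replicate 2, KO 24 h replicate 2 or KO 48 h replicate 2. The change of the genotype difference from 0 h was -0.48 at 24 h (adjusted p = 0.84) and -0.53 at 48 h (adjusted p = 0.66), so an effect that differs between times was not shown.

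**Figure D5:**
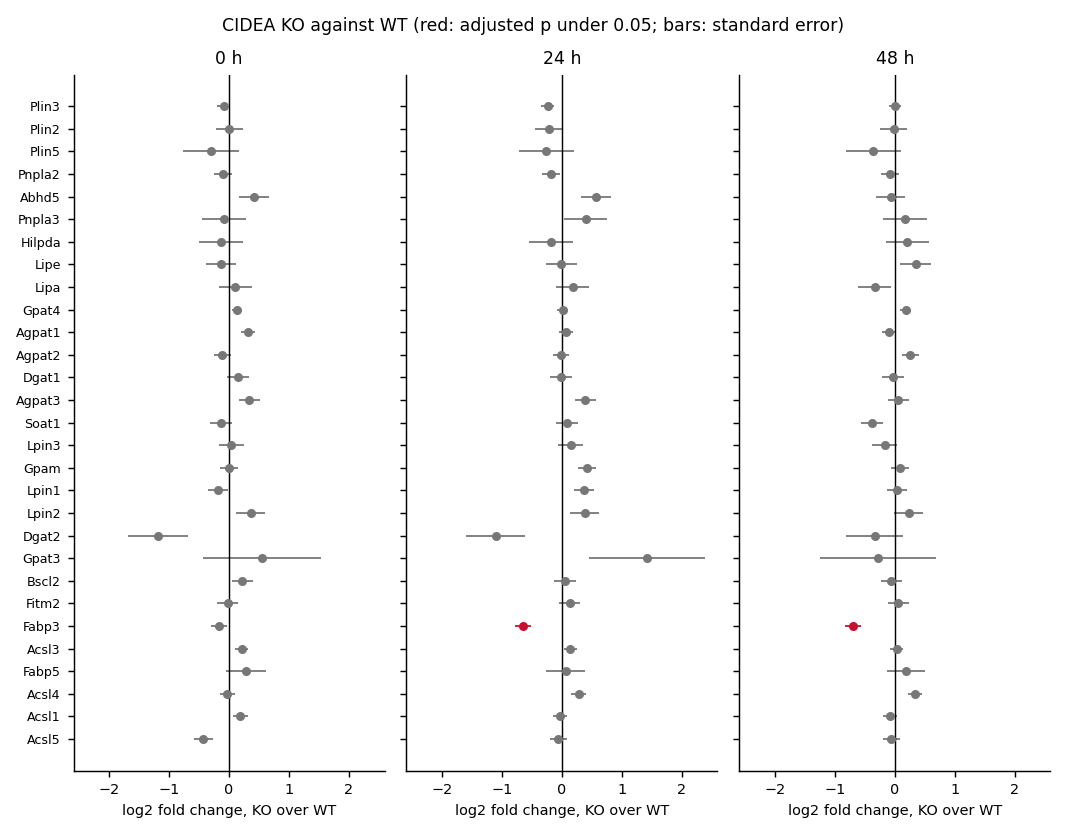
Log2 fold change of CIDEA KO over WT at 0 h, 24 h and 48 h for the 29 members with at least 10 counts in every library. Bars are standard errors of edgeR's fit, and red marks an adjusted p under 0.05. Fabp3 at 24 h (-0.65) and 48 h (-0.70) is the member marked, and Dgat2 and Gpat3 lie farthest from 0 among the others at 0 h and 24 h, with wide errors.

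For the 29 members with at least 10 counts in every library, the median size of the log2 difference between genotypes was 0.15 at 0 h, 0.18 at 24 h and 0.17 at 48 h, and 27, 25 and 28 of them were under 0.5 in size. Dgat2 was the lowest at 0 h (-1.19, 95% interval -2.23 to -0.15, adjusted p = 0.40) and 24 h (-1.11, -2.15 to -0.07, adjusted p = 0.36). Its KO libraries lay below its WT libraries at both of these times and overlapped them at 48 h, and the value over all times was -0.88 (SE 0.283, adjusted p = 0.083). Gpat3, an acyltransferase of the endoplasmic reticulum, was the highest at 24 h (1.42), where the KO libraries held 5.16 and 1.47 CPM and the WT libraries 0.535 and 1.94, which overlap. Acsl4 did not overlap between genotypes at 24 h and 48 h, with KO higher by 0.28 (adjusted p = 0.35) and 0.34 (adjusted p = 0.36), and was not called. Of the 35 members tested, 13 at 0 h, 13 at 24 h and 15 at 48 h did not overlap between genotypes. A lack of overlap alone therefore does not set a member apart, and its share over all genes was not counted. Plin2 at 24 h had means of 7.46 CPM in KO and 8.69 in WT, with overlapping libraries. In TPM the order was the other way, 12.7 ± 8.73 in KO and 10.6 ± 1.36 in WT (SD, n = 2). The 95% interval of its difference ran from -0.48 to 0.47 at 0 h and from -0.50 to 0.46 at 48 h. Differences within these bounds remain compatible with the data, and the bounds are not limits of detection. In simulated counts with the same design, 56% of genes changed by a log2 of 1 between KO and WT at 24 h were recovered, and 81% of those changed by 2. Apart from the changed genes, every group was given the same mean, and each gene had the same dispersion in every group. In the data the 2 KO 24 h libraries differed most from each other, with a chi-square per degree of freedom of 33.9. The pairs of the other groups had 11.6 to 18.8. The simulated rates leave this out. Changed genes were drawn from those above about 1 CPM on average, so these rates do not cover members at lower levels.

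A further 71 genes of lipid handling outside the 37 were read in the same fits, of which 59 were tested. From 0 h to 48 h in WT, 15 were called (7 rose, 8 fell), or 25.4% of those tested, close to the 23.6% of all genes. Among these were Tfeb, a transcription factor of lysosome genes, which fell from 84.0 and 91.8 CPM to 9.53 and 9.24 (log2 -3.23, adjusted p = 4.2e-11), Acsf2, a medium-chain acyl-CoA synthetase (-1.18, adjusted p = 9e-06), and Mlxipl, the carbohydrate response factor ChREBP, which rose from 2.21 and 4.77 to 9.16 and 9.97 CPM (1.45, adjusted p = 0.01). Tfe3, another transcription factor of the list, was called in the direction opposite to Tfeb, from 58.5 and 63.7 to 127.5 and 129.9 CPM. Mogat2, a monoacylglycerol acyltransferase, went from 9 and 0 counts to 117 and 104 (adjusted p = 0.035), and Acsbg1, another acyl-CoA synthetase, from 0 in both libraries to 18 and 52 counts (adjusted p = 0.026). In KO, 13 were called (6 rose, 7 fell), or 22.0%, beside 25.0% of all genes.

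Between genotypes, edgeR called 0 of the 59 at 0 h and 48 h (9 and 5 at an unadjusted p under 0.05), 2 at 24 h and 6 over all times, where 1.26%, 0.671%, 1.46% and 5.03% of all genes were called. Other tools were not tabulated for this list. Lpl, the lipase that frees fatty acids from lipoproteins outside the cell, was higher in KO at 24 h, with 70.9 and 53.0 CPM against 28.8 and 33.2 in WT (log2 1.0, SE 0.16, adjusted p = 0.0023). Its difference over all times was 0.55 (adjusted p = 0.00098). Acsl6, a further acyl-CoA synthetase, had 18.0 and 12.3 CPM in KO and 7.22 and 8.52 in WT at 24 h (0.94, adjusted p = 0.037), and 0.51 over all times. Tfeb (-0.54), Pnpla7 (-0.45), a lysophospholipase, and Ppard (0.43), a nuclear receptor activated by fatty acids, were also called over all times, as was Acsf2 (-0.36).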

How the data were processed

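Per the labels, the authors used Trimmomatic 0.33 for trimming and kallisto 0.43.1 for transcript quantification (mm10, GRCm38). The tables deposited by the authors hold estimated counts and TPM per transcript. Transcripts were matched by identifier to GENCODE M21 genes (113580 of 115270; unmatched ones held 0.659% to 0.709% of the counts). Estimated counts were summed per gene and rounded, and TPM summed. The package edgeR 4.0.16 (TMM, filterByExpr, robust quasi-likelihood fit of 6 group means, Benjamini-Hochberg over 17424 genes) gave the tests, and DESeq2 1.42.0 and limma 3.58.1 (log2(TPM + 1)) were alternatives. The fits were tested on simulated data. Intervals use the t distribution. The floor of 3 counts covers counting error only. The study calls its libraries independent biological samples. Members and lists were chosen with earlier results of these data known. Values were printed for Cidea, members called in any comparison and the most abundant of each role, and, of the other lipid genes, for at most the 5 widest calls in WT 48 h against 0 h and in KO against WT (Acsf2, Tfe3 and the 24 h values were added after the values were seen). Outside this rule, ranges or shares of further members such as Cideb, Mgll, Hilpda and Lipa were printed. Gpat3 at 24 h was printed because its genotype difference was the highest.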

Additional observations from a re-analysis of the deposited data

How the results depend on the processing

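No called value of a member changed direction under any alternative. Of 61 called values, 20 were kept under every alternative that gave a value, and 16 of these also in all 12 fits that each left out 1 library. Calls were gained as well. DESeq2 added 11 called values, and the filter of at least 10 counts in every library added 13. Leaving out KO 24 h replicate 1 added 11, and leaving out replicate 2 added 21. Members described above as not called are those not called by edgeR with all 12 libraries, and some were called in these other fits. On log2(TPM + 1) with limma, the members called numbered 2 in WT from 0 h to 24 h, 1 in WT from 24 h to 48 h, 6, 2 and 7 in KO (24 h against 0 h, 48 h against 24 h, 48 h against 0 h), and 0 in KO against WT at 24 h and at 48 h. Offsets made from mean transcript lengths gave 3 and 3 in WT, 5, 4 and 7 in KO, and 0 in KO against WT at 0 h, 24 h and 48 h. With the compared groups alone they were 7 and 3 in KO (24 h against 0 h, 48 h against 24 h) and 0 in KO against WT at 24 h. Requiring at least 10 counts in every library, which removes Cidea, gave 0 at 0 h and 1 at 24 h between genotypes. DESeq2 gave 2 at 48 h between genotypes, and no filter on low counts 2 there and 1 in the interaction at 48 h. Over all genes, calls under the first of these settings fell too, from 15.0% to 7.82% and from 8.14% to 2.73% in the WT comparisons and from 18.6% to 9.28%, 9.95% to 4.51% and 25.0% to 15.0% in the KO comparisons. Under the offsets they were 7.57% and 3.24% in WT and 10.2%, 4.72% and 15.3% in KO. Between genotypes at 0 h, 24 h and 48 h they were 0.115%, 0.115% and 0.132% under limma and 0.344%, 0.367% and 0.109% under the offsets. With the compared groups alone they were 13.3% and 4.93% in KO and 0.0833% between genotypes at 24 h. The cause of the other differences was not tested. Leaving out 1 library at a time gave 4 to 11, 4 to 10 and 9 to 12 members in WT, 6 to 13, 4 to 7 and 7 to 15 in KO (24 h against 0 h, 48 h against 24 h, 48 h against 0 h), and 0 to 1, 0 to 2, 0 to 2 and 2 to 5 between genotypes at 0 h, 24 h, 48 h and over all times, with 0 in both interactions. Over all genes the same fits called 7.14% to 19.0%, 3.48% to 11.9% and 14% to 27.7% in WT, 9.44% to 27.4%, 4.03% to 19.9% and 14.9% to 28.2% in KO, 0.397% to 2.33%, 0.334% to 12.4%, 0.278% to 1.4% and 2.7% to 13.4% between genotypes, and 0.00529% to 5.71% and 0.0212% to 0.309% in the interactions. The 12.4% and 5.71%, both at 24 h, came without KO 24 h replicate 2, where the next highest were 1.41% and 0.0426%. Within a time, same-numbered replicates of WT and KO did not deviate together (correlations 0.003, 0.051 and -0.009 at 0 h, 24 h and 48 h). Whether same-numbered libraries of a genotype deviated together across the times was not tested. With a replicate block, 0 members were called between genotypes at 48 h, and 59 of the 61 called values were kept.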

Other observations

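The split of a gene's summed TPM among its transcripts was also read. Of 23 members with enough transcripts and counts, 17 had a leading transcript whose share differed by at least 20 percentage points between the group means. In 4 of these the range over the groups was larger than the largest gap between replicates: Lpin1, with a range of 66.9 points against a gap of 42.2, Pnpla3 with 50.4 against 40.2, Agpat1 with 32.2 against 27.3 and Dgat1 with 25.5 against 24.4. These genes were singled out after their values were seen, and the shares were not tested. The leading transcript of Pnpla2 was annotated as nonsense-mediated decay and that of Abhd5 as a processed transcript. The summed levels of Pnpla2 and Abhd5 therefore include transcripts not annotated as protein-coding.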
